A study of Mus musculus with 18 samples.

Results

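The retinal response to optic nerve crush after deletion of DLK was measured by comparing 5 crushed with 5 uncrushed Cre-positive retinas, chosen by the treatment label. These were 10 of the 18 arrays of the series. All mice carried floxed alleles of Map3k12, the gene for dual leucine zipper kinase (DLK), on both chromosomes, and all received tamoxifen at 10 to 12 weeks of age. Cre-positive mice also carried Cre-ERT, a recombinase that tamoxifen switches on, driven by the CAG promoter, which is active in many tissues, so deletion was not limited to neurons and, per the labels' protocol, left a small and variable amount of DLK protein. Whole retinas were taken 3 days after the crush, and the control was the uncrushed eye. On 2-colour Agilent arrays the Cy5 channel held the retina's RNA and the Cy3 channel a commercial pool of mouse RNA, and every value below is log2 of Cy5 over Cy3, so a difference of 1 is a doubling. Cre-negative retinas with the same floxed alleles and tamoxifen, 3 crushed and 4 uncrushed, served for comparison, and 1 further Cre-negative array whose labels disagree on its treatment was left out. The labels do not say which eyes share an animal or that samples came from separate animals, so p-values measure the spread between these samples.

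Crushing the optic nerve cuts the axons of retinal ganglion cells, the only neurons that connect the eye to the brain. DLK is a kinase that senses axon damage and passes the signal through the JNK kinases to transcription factors such as Jun, and the genes it switches on in ganglion cells belong to both cell death and axon regrowth. Other cells of the retina also respond to the injury: Müller glia and astrocytes become reactive, and microglia, the resident macrophages, become active.

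The floxed gene and the receptor part of the transgene were read first. Map3k12 read 2.17, 1.77, 2.04, 1.90 and 2.11 on uncrushed replicates 1 to 5 and 1.94, 1.91, 2.34, 1.84 and 2.14 on crushed replicates 1 to 5. The groups overlapped, crush changed its level by 0.04 (SE 0.10, limma adjusted p = 0.93), and 7 Cre-negative arrays read 2.21 to 2.61. Whether the probe lies in the deleted exon is not given, so its level does not measure the remaining functional transcript. A probe of Esr1, the estrogen receptor whose hormone-binding part is fused to this Cre, read 1.80, 2.90, 2.42, 2.35 and 2.28 on uncrushed and 3.17, 3.07, 2.70, 3.12 and 3.31 on crushed arrays. It was not well above background on any Cre-negative array (-0.84 to -0.50). Within Cre-positive retinas this probe was 1.65-fold higher after crush (log2 0.72, SE 0.15, limma adjusted p = 0.024), although uncrushed replicate 2 lay above crushed replicate 3. The call was lost without crushed replicate 1 or 5 or uncrushed replicate 4 or 5, where the highest adjusted p was 0.077, and another Esr1 probe changed by -0.02. LZK, the related kinase encoded by Map3k13, changed by 0.03 (SE 0.06, limma adjusted p = 0.91).

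On every Cre-positive array the Müller glia protein Rlbp1, a retinal marker, read 6.10 to 6.51. Between 68% and 75.5% of probes were well above background in Cy5 and 0 were saturated, and arrays of a group correlated at 0.982 to 0.995. Genes of neighbouring tissues were high on single arrays. Krt12, the keratin of corneal epithelium, read 5.55 on uncrushed replicate 4, 3.50 on uncrushed replicate 2 and 2.09 on crushed replicate 4, against 0.06 to 0.72 on the other 7 arrays. The median of 14 cornea and conjunctiva genes, relative to their mean over uncrushed arrays, was 1.72 on uncrushed replicate 4 and -0.56 to -0.09 elsewhere. Cryaa, the lens crystallin alpha A, read 3.18 on crushed replicate 5 and -0.01 to 0.44 on the other 9. The median of 15 lens genes was 0.59 on crushed replicate 5 and -0.06 to 0.08 elsewhere. Between crushed and uncrushed retinas 0 of the 15 lens and 0 of the 14 cornea genes passed in either direction in limma, and 1 lens gene and 0 cornea genes had an unadjusted p under 0.05. The same held for 0 of 15 pigment epithelium, 0 of 13 iris and muscle and 0 of 4 red blood cell genes, with 0 at an unadjusted p under 0.05. With 0.776% of all genes called, a count of 0 in lists of this size says nothing particular about them. On 1 slide both groups were present as 2 arrays each, and on 3 slides as 1 array each, with uncrushed retinas at odd and crushed retinas at even positions, so position parity and crush cannot be told apart.

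**Figure D1:**
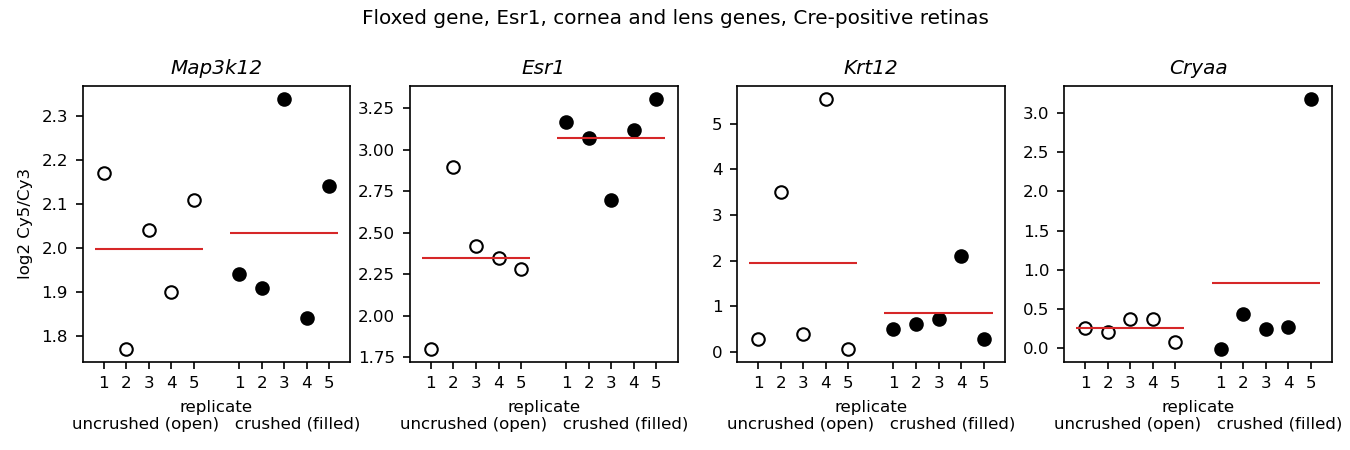
Log2 Cy5/Cy3 (vertical axis) of Map3k12, the Esr1 probe, Krt12 and Cryaa on each Cre-positive array, with uncrushed replicates 1 to 5 as open circles and crushed replicates 1 to 5 as filled circles, and horizontal bars at the group means. Krt12 stands at 5.55 on uncrushed replicate 4 and Cryaa at 3.18 on crushed replicate 5.

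In Cre-positive retinas 195 of 25131 genes changed with crush at an adjusted p under 0.05 in limma, which is 0.776% of the genes tested. Of these 173 rose (0.688%) and 22 fell (0.0875%), and 176 of the 195 have a gene symbol. At an unadjusted p under 0.05, 2409 genes (9.59%) differed. The rises were larger than the falls: 13 genes rose at least 2-fold (0.0517%) and 0 fell that much, the largest fall being 0.64 on the log2 scale. The median change was 0.51 for the rises and -0.36 for the falls, against 0.00074 for all genes. Every called gene moved in the same direction within each of the 4 slides. The slides hold the same arrays that gave the calls, so this is no separate support, and the share of all genes is not given. With slide as a fixed block 189 genes passed, 154 of them among the 195. For 175 of them the crushed and uncrushed arrays did not overlap, as for 526 of all genes (2.09%). Without any 1 of the 17 arrays of the fit, 92 genes kept their call in every case, 83 of the rises and 9 of the falls. With the 10 Cre-positive arrays fitted alone, 52 genes passed, all of them among the 195. Among the genes described below these included Cxcl10, Ccl12, Osmr, Cebpd, Edn2, Vim, C4b, C1qb, C1qc, Aif1, Ctss, Ly86, Gbp2, Ecel1, Sox11, Atf3, Stmn4, Crh, Gal, Bbc3, Scn4b, Fkbp1b, Tppp3, Nefl, Elavl2, Rasgrp2 and Tfrc, and not the others. With the left-out array placed in the Cre-negative uncrushed group, 10 passed, all of them rises, and with it in the Cre-negative crushed group 190 passed, 181 of them among the 195. Values of the left-out array for Ecel1, Sox11 and Atf3 are given further below.

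The crushed retinas were not alike. Crushed replicate 5, the array with a high Cryaa, had the highest of the 5 crushed values for 144 of the 173 rises (83.2%), compared with 17.2% of all genes. Relative to the uncrushed mean, the median of the rises was 0.86 on this array and 0.38, 0.43, 0.54 and 0.36 on crushed replicates 1 to 4. The median of the falls was -0.41 on crushed replicate 5 and -0.36 to -0.27 on the others. The called genes were chosen with values that include crushed replicate 5, which can favour genes extreme on it. These shares and medians are therefore no independent measure of that array. What part the lens signal of this array has in these values was not tested. The comparisons below rest on all 5 arrays. Without crushed replicate 5, 129 genes passed, 124 of them among the 195, and without it and the cornea-rich uncrushed replicate 4 together, 119 passed, of which 105 were among the 195.

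Chemokines, the secreted ligands that draw and activate immune cells, gave the largest single rise. Cxcl10, a chemokine induced by interferon and by injury, read -2.93, -3.48, -2.93, -3.40 and -3.33 in uncrushed and 0.47, -1.24, -1.13, -1.74 and -0.33 in crushed retinas. The groups lay far apart, and the rise was 5.35-fold (log2 2.42, SE 0.29, limma adjusted p = 3e-04). Its Cy5 signal was well above background on 2 of the 5 uncrushed arrays and on all 5 crushed ones. The size depended on the processing and ran from 2.10 to 4.40 on the log2 scale over 34 alternatives, in all of which it was called. Ccl12, a ligand of the monocyte receptor Ccr2, rose 2.46-fold, from -1.02 ± 0.25 to 0.28 ± 0.55 (SD, n = 5 each; limma adjusted p = 0.0037), with every crushed array above every uncrushed one. Ccl2, the closest relative of Ccl12 in function, went from -3.69 ± 0.03 to -3.52 ± 0.06 (SD, n = 5 each; log2 0.17, limma adjusted p = 0.084). Of 19 measured chemokines 2 rose and 0 fell, with a median change of 0.09, where 0.688% of all genes rose. The count was 4 without crushed replicate 4 and at most 3 without any other array. All gene lists were chosen with earlier results of these data known, so the share of all genes is no independent yardstick. Among 7 chemokine receptors, Cx3cr1, the fractalkine receptor of microglia, rose by 0.74 (limma adjusted p = 0.037), but the call was lost in 11 of 17 fits that left out 1 array (highest adjusted p 0.12) and another probe gave 0.11.

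The upstream sequences of these genes were searched for short motifs, because genes that rose together can share them. Of the 20 largest rises with a symbol, 15 had a promoter in the RefSeq table (GRCm38.p6), and Nlrc5, Cebpd, C4b, Crh and Ifi27l2a did not. The motifs were TTCNNNGAA (STAT), TGANTCA (AP-1) and TGATGNAA (ATF4-C/EBP composite). Also searched were a form of the NF-kappa-B site (GGG and TTTCC parted by any 2 bases) and the interferon response element (GAAA repeated after any 2 bases). All were sought on either strand of the 250 bases before the start. The share of all promoters with a match to any of these motifs was not computed, so the next count has nothing to be set against. Of the 15 promoters 5 held a match, those of Cxcl10, Nupr1, Rsad2, Atf3 and Aif1. The sequences of 3 are shown, a chemokine and 2 stress-induced transcription regulators, 5′ to 3′ on the coding strand with motif matches in capitals. They lie at chr5:92348890-92349139 on the minus strand for Cxcl10, chr7:126625471-126625720 on the minus strand for Nupr1 and chr1:191183334-191183583 on the minus strand for Atf3.
Cxcl10: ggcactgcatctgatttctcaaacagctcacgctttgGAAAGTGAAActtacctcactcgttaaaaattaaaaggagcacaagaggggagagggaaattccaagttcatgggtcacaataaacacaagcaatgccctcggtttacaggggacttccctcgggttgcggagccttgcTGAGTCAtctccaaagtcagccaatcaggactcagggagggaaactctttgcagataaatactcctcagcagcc
Nupr1: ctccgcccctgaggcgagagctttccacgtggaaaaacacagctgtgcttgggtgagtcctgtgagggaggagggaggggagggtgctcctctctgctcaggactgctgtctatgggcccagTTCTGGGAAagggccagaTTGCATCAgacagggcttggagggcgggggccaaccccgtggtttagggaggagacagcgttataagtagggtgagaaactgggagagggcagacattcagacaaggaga
Atf3: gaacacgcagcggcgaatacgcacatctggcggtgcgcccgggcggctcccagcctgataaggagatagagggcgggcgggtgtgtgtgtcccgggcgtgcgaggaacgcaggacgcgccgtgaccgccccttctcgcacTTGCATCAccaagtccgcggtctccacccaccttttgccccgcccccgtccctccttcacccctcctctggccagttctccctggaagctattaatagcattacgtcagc
The capitals mark an interferon response match and an AP-1 match in Cxcl10. They mark a STAT match followed by an ATF4-C/EBP match in Nupr1, and an ATF4-C/EBP match in Atf3. Other forms of these sites, such as those of NF-kappa-B, were not searched, so lowercase letters do not show that a site is absent. Over 144 promoters of 119 genes that rose, the NF-kappa-B motif was present in 6.25%, against 1.38% of 16675 promoters of 13295 tested genes. The interferon response motif was in 6.25% against 2.71%, the AP-1 motif in 9.72% against 5.21%, the STAT motif in 9.03% against 6.23% and the ATF4-C/EBP motif in 4.17% against 2.36%. These shares describe letters in a window, and no test was made of them.

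The gp130 cytokine group came next. These cytokines, among them LIF and oncostatin M, act through Il6st (gp130) and the transcription factor Stat3. Osmr, the oncostatin M receptor, rose 1.78-fold, from -3.0, -3.05, -2.98, -2.85 and -3.0 to -2.23, -2.24, -2.29, -2.26 and -1.71 (log2 0.83, SE 0.10, limma adjusted p = 3e-04). The groups did not overlap, and crushed replicates 1 to 4 lay within a narrow band below crushed replicate 5. Stat3 rose by 0.67 (limma adjusted p = 0.019), with the call lost without crushed replicate 5 or uncrushed replicate 3 or 5 (highest adjusted p 0.058) and another probe at 0.39. Il6st rose by 0.28 (limma adjusted p = 0.023), a call lost without uncrushed replicate 2 or 5 (highest adjusted p 0.068). Of 18 members of this group 3 rose and 0 fell, with a median of 0.11, where 0.688% of all genes rose. The count fell to 1 without uncrushed replicate 5. Socs3, the feedback inhibitor that STAT3 induces, read -1.0 on crushed replicate 5 and -1.80 to -1.55 on the other crushed arrays against -2.12 to -1.96 uncrushed, a change of 0.47 that did not pass (limma adjusted p = 0.07) and passed without crushed replicate 4 or 5 (lowest adjusted p 0.024). Lif, the ligand, gave 0.10 (limma adjusted p = 0.84).

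In the NF-kappa-B group 1 of 15 members rose and 0 fell (median 0.03), where 0.688% of all genes rose. The riser was Bcl3, a nuclear partner of NF-kappa-B subunits, at -3.02, -3.58, -3.34, -3.29 and -3.28 uncrushed and -2.20, -2.35, -1.69, -2.32 and -0.21 crushed. The groups were apart, and the rise was 2.92-fold over all arrays (log2 1.55, SE 0.29, limma adjusted p = 0.014) and 1.16 on the log2 scale without crushed replicate 5 (adjusted p = 0.00026). Nfkb2, which encodes a subunit of the factor, gave 0.24 (limma adjusted p = 0.52).

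Acute-phase and reactive glia genes were read as 2 lists. Cebpd, a transcription factor of the acute-phase response, rose 4.15-fold, from -1.74, -1.87, -2.08, -2.32 and -1.30 to 0.03, -0.01, -0.05, -0.52 and 1.51 (log2 2.05, SE 0.30, limma adjusted p = 0.0019). All crushed arrays lay above all uncrushed ones, and the change was 1.72 without crushed replicate 5. Of 14 acute-phase and metallothionein genes 4 rose and 0 fell, with a median of 0.32, where 0.688% of all genes rose. The count was 1 without uncrushed replicate 2 and 2 or more without any other array. The others were Serpina3n, a protease inhibitor of reactive astrocytes (0.87, limma adjusted p = 0.02), and the metal-binding proteins Mt2 (0.65, 0.02) and Mt1 (0.26, 0.038), the bracketed values being the log2 change and the limma adjusted p here and in later lists. Serpina3n lost its call without uncrushed replicate 1, 2 or 4 (highest adjusted p 0.057), Mt2 without uncrushed replicate 2 (0.067), and Mt1 in 13 of 17 such fits (0.12). Lcn2 and Timp1, secreted proteins of reactive astrocytes, gave 0.40 (limma adjusted p = 0.37) and 0.33 (limma adjusted p = 0.15). Lcn2 read 0.00 on crushed replicate 5 and -1.08 to -0.63 on the other crushed arrays.

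Of 21 genes of reactive glia 6 rose and 0 fell (median 0.20), where 0.688% of all genes rose. Gfap, the intermediate filament of astrocytes and reactive Müller cells, read 0.58, 0.65, 0.48, 0.47 and 0.69 uncrushed and 1.37, 1.76, 0.84, 1.26 and 1.69 crushed. The groups did not overlap and the rise was 1.75-fold (log2 0.81, SE 0.14, limma adjusted p = 0.0061), while 2 other probes gave 1.13 and 0.38. Vim, another intermediate filament, rose by 0.68 (SE 0.08, limma adjusted p = 0.00037). Nes, Osmr and Edn2 were also among the 6. Cd44, a hyaluronan receptor, rose by 0.42 (limma adjusted p = 0.013), with another probe at -0.02. Pdpn, a membrane glycoprotein that was among the 20 largest rises, rose 1.87-fold (log2 0.90, limma adjusted p = 0.0047). Fgf2, a growth factor of stressed Müller glia, gave 0.29 and did not pass (limma adjusted p = 0.08).

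The peptide ligand endothelin 2 rose without its receptor passing. Edn2, made in the injured retina and acting on the glial receptor Ednrb, read 2.69, 2.43, 2.27, 2.52 and 3.04 uncrushed and 3.89, 3.82, 3.81, 3.81 and 4.58 crushed. No arrays overlapped, and 4 of the 5 crushed arrays lay between 3.81 and 3.89. The rise was 2.62-fold (log2 1.39, SE 0.16, limma adjusted p = 0.00024). Ednrb gave 0.17 (limma adjusted p = 0.45). Of the 7 measured genes of the endothelin system 2 rose, Edn2 and Ecel1, where 0.688% of all genes rose. Ecel1, a membrane protein related in sequence to endothelin-converting enzyme, is described with the neuronal genes.

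**Figure D2:**
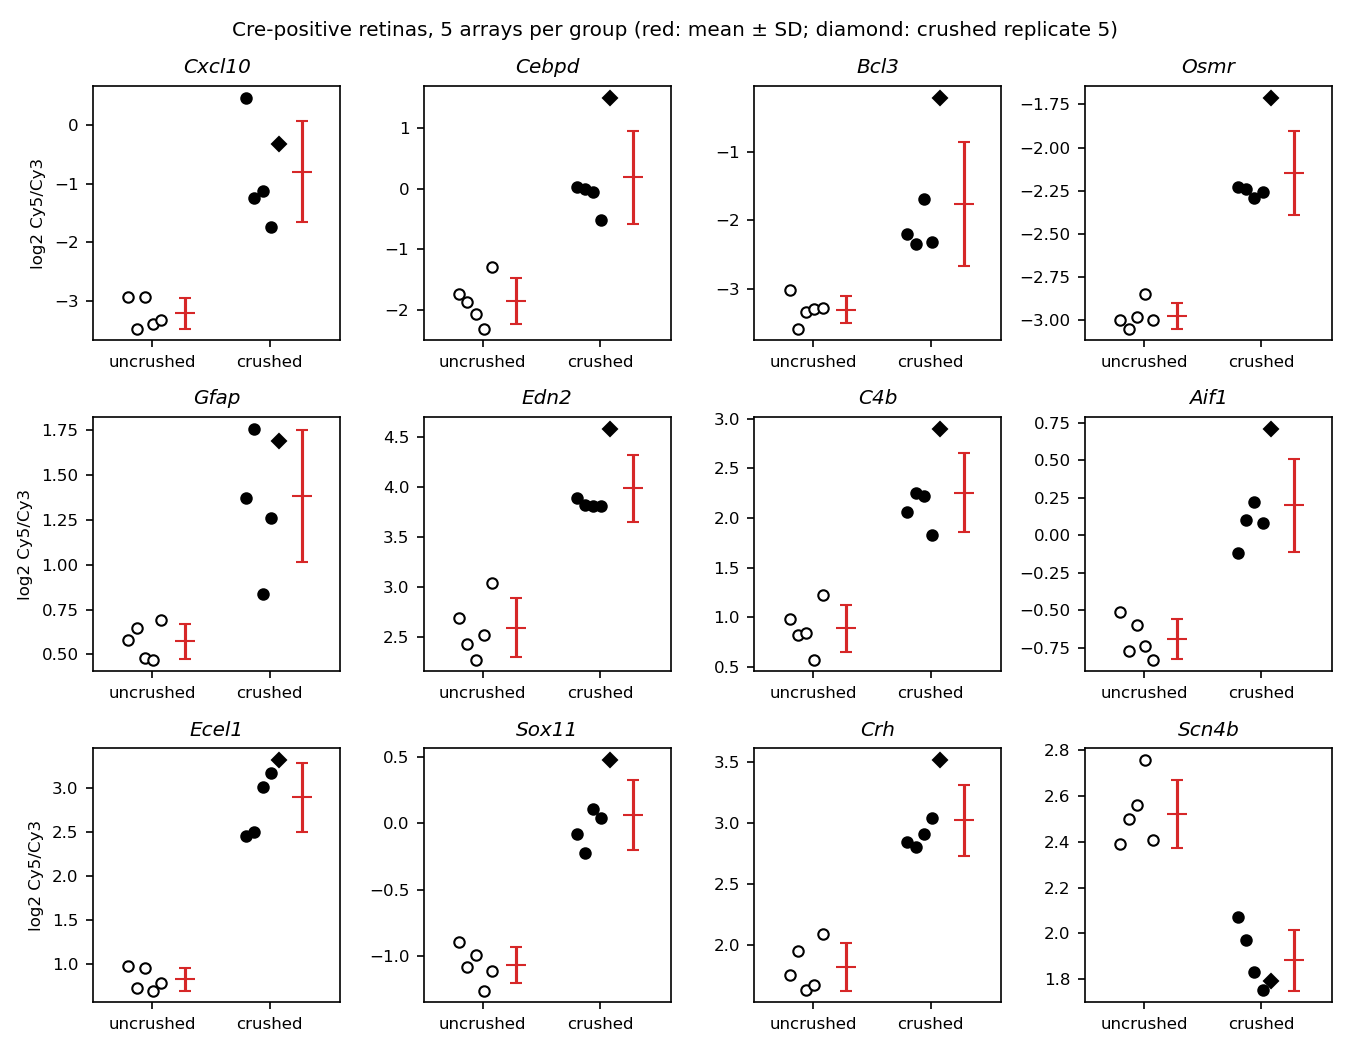
Log2 Cy5/Cy3 (vertical axis, its range differing between panels) of 12 genes on each Cre-positive array, open circles for the 5 uncrushed and filled circles for the 5 crushed retinas, crushed replicate 5 as a diamond, with group means ± SD beside the points. Crushed and uncrushed arrays do not overlap for any of the 12. Crushed replicate 5 is the highest crushed array for Cebpd, Bcl3, Osmr, Edn2, C4b, Aif1, Ecel1, Sox11 and Crh. It is not the highest for Cxcl10, Gfap or Scn4b.

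Of 17 complement genes measured 7 rose and 0 fell, with a median change of 0.45, where 0.688% of all genes rose. Without uncrushed replicate 2 the count was 4. C1qa, C1qb and C1qc encode the chains of C1q, the recognition protein that starts the classical pathway and is made by microglia. C1qc read 1.94, 1.85, 2.06, 1.70 and 1.95 uncrushed and 2.44, 2.79, 2.83, 2.64 and 3.12 crushed. No arrays overlapped, and the rise was 1.82-fold (log2 0.86, SE 0.09, limma adjusted p = 0.00015). C1qa rose by 0.74 (limma adjusted p = 0.0071) and C1qb by 0.57 (limma adjusted p = 0.00086). C4b, the next component, for which the genome holds the near-identical C4a, rose 2.57-fold from 0.98, 0.82, 0.84, 0.57 and 1.22 to 2.06, 2.25, 2.22, 1.83 and 2.90 (log2 1.36, SE 0.15, limma adjusted p = 0.00018). Serping1, the inhibitor of C1, rose by 0.64 (limma adjusted p = 0.027), a call lost without crushed replicate 2 or 5 or uncrushed replicate 1 or 2 (highest adjusted p 0.087). C3, the central component, was at -4.44 to -4.29 on crushed replicates 1, 3 and 4, at -3.99 on crushed replicate 2 and at -3.24 on crushed replicate 5, and its change of 0.50 did not pass (limma adjusted p = 0.21).

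Microglial genes rose in 8 of 17 and fell in 0 (median 0.35), where 0.688% of all genes rose. Without uncrushed replicate 2, 4 or 5 the count was 5. Aif1, the calcium-binding protein IBA1, read -0.51, -0.77, -0.60, -0.74 and -0.83 uncrushed and -0.12, 0.10, 0.22, 0.08 and 0.71 crushed. All crushed arrays were higher, and the rise was 1.85-fold (log2 0.89, SE 0.11, limma adjusted p = 0.00052). The growth factor receptor Csf1r (0.69, 0.0029), the lipid receptor Trem2 (0.57, 0.0029) and the surface protein Selplg (0.50, 0.013) rose and kept their calls without any 1 array. The other 2 probes of Csf1r gave 0.04 and -0.03, and another Selplg probe 0.11. Tmem119, a membrane protein of resident microglia, rose by 0.35 (limma adjusted p = 0.04), a call lost in 11 of 17 fits without 1 array (highest adjusted p 0.12), while P2ry12, the purine receptor of resting microglia, gave 0.04 (SE 0.07, limma adjusted p = 0.90). In whole retina, more cells of a type and more RNA per cell cannot be told apart, and the same holds for fewer and less.

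Genes of phagocytes and lysosomes rose in 4 of 20 (median 0.13), where 0.688% of all genes rose. They were led by the protease Ctss, which was 1.84-fold higher (log2 0.88, SE 0.11, limma adjusted p = 0.00042). Cd9, a tetraspanin (0.66, 0.0066), and the antibody receptors Fcgr2b (0.66, 0.012) and Fcgr3 (0.49, 0.03) were the others, the last with its call lost in 6 of 17 fits (highest adjusted p 0.098). Ly86, a partner of a Toll-like receptor homologue on myeloid cells, rose 1.98-fold (log2 0.99, limma adjusted p = 0.0013). Markers of blood leukocytes rose in 0 of 11 and fell in 0 by limma (median -0.02), where 0.776% of all genes were called. Of these markers 1 had an unadjusted p under 0.05.

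Antigen presentation genes rose in 5 of 17 and fell in 0 (median 0.32), where 0.688% of all genes rose. Between 2 and 5 were called without any 1 array, the fewest without crushed replicate 1 or uncrushed replicate 1, 2 or 5. These were Nlrc5, the activator of MHC class I genes (1.10, 0.023), the class I genes H2-K1 (0.56, 0.0098) and H2-T23 (0.46, 0.021), their light chain B2m (0.33, 0.037) and the proteasome subunit Psmb8 (0.50, 0.029). H2-K1 kept its call without any 1 array, H2-T23 lost it in 3 of 17 fits (highest adjusted p 0.06), Nlrc5 in 4 (0.077), Psmb8 in 6 (0.09) and B2m in 13 (0.09). Another Nlrc5 probe gave 0.01. Interferon-induced genes had a median change of 0.45, with 26 of 28 above 0 and 4 called: the GTPase Gbp2 (0.86, 0.0017), the antiviral proteins Rsad2 (0.92, 0.049) and Bst2 (0.86, 0.037) and the transcription factor Irf8 (0.53, 0.023). Gbp2 read -1.65, -1.55, -1.31, -1.56 and -1.80 uncrushed and -0.51, -1.06, -0.68, -0.99 and -0.34 crushed, with no overlap. The count ran from 1 without uncrushed replicate 2 or 5 to 7 without crushed replicate 4 or uncrushed replicate 3. Rsad2 lost its call in 15 of 17 fits (highest adjusted p 0.16), Bst2 in 10 (0.11) and Irf8 in 2, those without uncrushed replicate 2 or 5 (0.075). The median of this list differed between arrays of 1 group, from -0.21 to 0.40 in uncrushed retinas, where replicate 3 was highest, and from 0.14 to 0.98 in crushed retinas, where replicate 5 was highest. The transcription factor Irf1 (0.39, 0.23) did not pass. On crushed replicate 5 the list medians were also 0.72 for complement, 0.67 for antigen presentation and 1.09 for acute-phase genes, against at most 0.46, 0.23 and 0.28 on the other crushed arrays. Without this array and uncrushed replicate 4, Aif1 changed by 0.75, C1qc by 0.72, C4b by 1.12, H2-K1 by 0.43 and Gbp2 by 0.77, with limma adjusted p from 6.3e-05 for C4b to 0.012 for H2-K1. Among the immune genes, calls lost without these 2 arrays were those of Psmb8 (limma adjusted p 0.069), B2m (0.19), Rsad2 (0.30), Serping1 (0.10), Fcgr3 (0.076), Tmem119 (0.072) and Cx3cr1 (0.20). The counts were then 5 for complement, 5 for microglial, 4 for antigen presentation and 3 for interferon-induced genes. Of the other genes described, Esr1 (0.13), Il6st (0.09), Mt1 (0.072), Fas (0.09), Maff (0.19) and Jund (0.32) also lost their calls. So did Nefm (0.11), Glul (0.25), Clu (0.11), Spc25 (0.054), Tfrc (0.31), Colec10 (0.25), Fabp5 (0.051) and Idi1 (0.084).

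**Figure D3:**
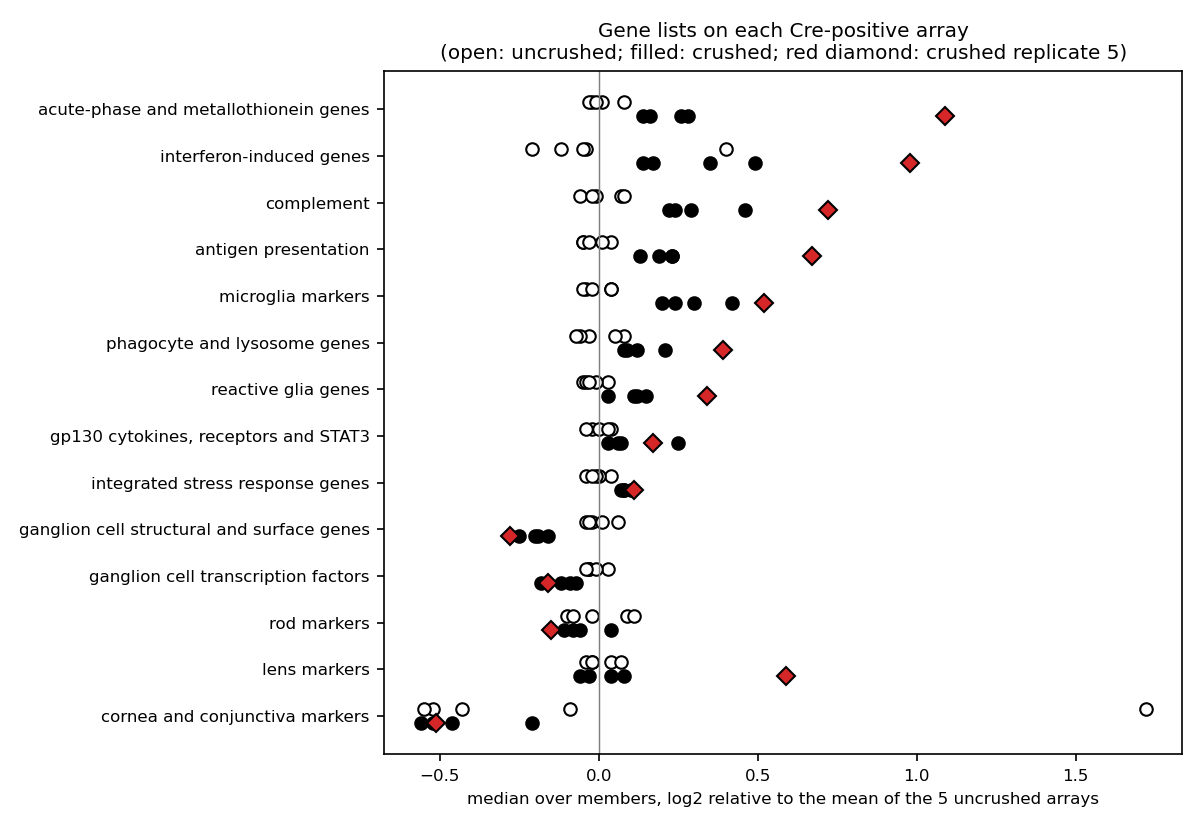
Median over the measured members of 14 gene lists on each Cre-positive array (horizontal axis, log2 relative to each gene's mean over the 5 uncrushed arrays), open circles for uncrushed and filled circles for crushed retinas, crushed replicate 5 as a diamond. Crushed replicate 5 stands at 1.09 for acute-phase genes, 0.98 for interferon-induced genes and 0.59 for lens genes, and the cornea median is 1.72 on uncrushed replicate 4.

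Genes of injured neurons rose after crush in Cre-positive retinas, in 4 of 24 axon injury and regeneration genes, with 0 lower and a median of 0.04. This count was 4 without any 1 array, and 0.688% of all genes rose. Ecel1, a membrane protein of the neprilysin family induced in injured neurons, read 0.97, 0.72, 0.95, 0.69 and 0.78 uncrushed and 2.46, 2.50, 3.02, 3.18 and 3.33 crushed. Every crushed array was more than 1 above every uncrushed one, and the rise was 4.22-fold (log2 2.08, SE 0.13, limma adjusted p = 2.7e-07). The transcription factor Sox11, active in developing neurons and in regrowing ones, read -0.89, -1.08, -0.99, -1.26 and -1.11 uncrushed and -0.08, -0.22, 0.11, 0.04 and 0.48 crushed, a 2.19-fold rise without overlap (log2 1.13, SE 0.10, limma adjusted p = 1.4e-05). Atf3, a transcription factor induced by stress and axon injury, rose 1.86-fold (log2 0.90, SE 0.09, limma adjusted p = 4e-05). Stmn4, a tubulin-binding stathmin, went from 4.79, 4.78, 4.80, 4.95 and 4.79 to 5.29, 5.26, 5.32, 5.33 and 5.23, a small and even rise of 1.38-fold (log2 0.46, SE 0.04, limma adjusted p = 2.3e-05). Stmn4 was not highest on crushed replicate 5, where it had its lowest crushed value. Gap43, a growth cone protein (0.04, 0.92), and Sprr1a, a protein of regrowing neurons (0.18, 0.77), did not pass. Sprr1a had its highest uncrushed value, -2.02, on the cornea-rich uncrushed replicate 4. Without this array and crushed replicate 5 its change was 0.32 (limma adjusted p = 0.54). What part the cornea signal has in its values was not tested.

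Of 16 neuropeptides and hormones 2 rose and 0 fell (median 0.03), where 0.688% of all genes rose. Crh, corticotropin-releasing hormone, read 1.75, 1.95, 1.63, 1.67 and 2.09 uncrushed and 2.84, 2.80, 2.91, 3.04 and 3.52 crushed. The groups did not overlap, and the rise was 2.31-fold (log2 1.21, SE 0.13, limma adjusted p = 0.00015). Gal, which encodes galanin, rose 1.76-fold (log2 0.82, SE 0.12, limma adjusted p = 0.0013). Among 14 AP-1 and CREB-related factors 3 rose (median 0.14), Atf3, Maff (0.37, 0.03) and Jund (0.51, 0.049), the latter 2 losing their calls in 8 and 15 of 17 fits without 1 array (highest adjusted p 0.098 and 0.15), so that the count ran from 1 to 4. Of 12 immediate early genes 0 passed in either direction (median 0.03, 2 with an unadjusted p under 0.05), and of 16 genes of the DLK, LZK and JNK pathway 0 passed (median 0.04, 1 with an unadjusted p under 0.05). Jun, the target of JNK, read -2.22 to -1.28 uncrushed and -2.09 to -1.13 crushed, overlapping almost fully (0.35, SE 0.18, limma adjusted p = 0.57).

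Integrated stress response genes are the targets of ATF4 that cells switch on when translation is curbed. They rose in 1 of 30 and fell in 0, with a median of 0.08, where 0.688% of all genes rose. Without crushed replicate 1 the count was 4. The riser was Nupr1, a small chromatin protein, at -2.70, -2.75, -2.53, -2.80 and -2.66 uncrushed and -1.94, -2.01, -1.86, -2.07 and -0.99 crushed. Crushed replicates 1 to 4 lay close together above all uncrushed arrays, and the change was 0.92 in all (SE 0.15, limma adjusted p = 0.0054) and 0.72 without crushed replicate 5. Chac1, a glutathione-degrading enzyme, gave 0.50 (limma adjusted p = 0.054) and passed without crushed replicate 1 or 2 or uncrushed replicate 4 (lowest adjusted p 0.0089). Atf5 gave 0.36 (limma adjusted p = 0.051), passing without crushed replicate 1 or 2 (lowest adjusted p 0.018), and the transcription factor Ddit3 gave 0.09 (limma adjusted p = 0.73).

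Of 21 genes of the BCL2 family and death receptors 4 rose and 0 fell (median 0.06), where 0.688% of all genes rose. Without uncrushed replicate 1, 2, 3 or 4 the count was 2. Hrk and Bbc3 encode BH3-only proteins, which trigger apoptosis at mitochondria. Hrk read 0.47, 0.95, 0.65, 0.73 and 0.74 uncrushed and 1.16, 1.28, 1.07, 1.83 and 1.48 crushed, without overlap and 1.58-fold higher (log2 0.66, SE 0.12, limma adjusted p = 0.0084). Bbc3 rose by 0.49 (SE 0.07, limma adjusted p = 0.0026) and neither call was lost without any 1 array. The receptors Fas (0.62, 0.033) and Tnfrsf1a (0.46, 0.03) lost theirs in 6 and 5 of 17 fits (highest adjusted p 0.085 and 0.087), and another Tnfrsf1a probe gave 0.14. Of 12 p53 targets 0 rose and 0 fell by limma (median -0.01), where 0.776% of all genes passed, and 1 had an unadjusted p under 0.05.

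Genes of ganglion cells were among the falls. Of 23 structural and surface genes of ganglion cells 7 fell and 0 rose (median -0.17), while 0.0875% of all genes were called lower. The list was chosen with earlier results of these data known, so this share is no independent yardstick. Scn4b, a sodium channel subunit, read 2.39, 2.50, 2.56, 2.76 and 2.41 uncrushed and 2.07, 1.97, 1.83, 1.75 and 1.79 crushed. It was the largest fall, and the groups did not overlap (log2 -0.64, SE 0.08, limma adjusted p = 0.00081). Fkbp1b, a regulator of calcium release channels, went from -0.07, 0.21, 0.18, 0.03 and 0.26 to -0.44, -0.42, -0.51, -0.41 and -0.54 (log2 -0.58, SE 0.06, limma adjusted p = 4e-05), with another probe at -0.30. Tppp3, a tubulin-binding protein, fell by 0.51 (limma adjusted p = 0.00086).

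Neurofilament genes, whose proteins fill large axons, were the next group. Nefl went from 6.64, 6.81, 6.56, 6.74 and 6.61 to 6.37, 6.21, 6.41, 6.30 and 6.25, so that all crushed arrays were lower (log2 -0.36, SE 0.05, limma adjusted p = 0.0023). Nefm gave -0.35 (limma adjusted p = 0.02), a call lost without crushed replicate 5 or uncrushed replicate 3 (highest adjusted p 0.056), and Nefh -0.28 (limma adjusted p = 0.069), which passed without crushed replicate 3 (adjusted p 0.015). The RNA-binding proteins Elavl2 (-0.31, 0.0013) and Rbpms2 (-0.27, 0.021) were the remaining falls, the latter lost in 4 of 17 fits (highest adjusted p 0.068). Rbpms (-0.28, 0.11), Thy1 (-0.14, 0.29), Sncg (-0.10, 0.47) and Slc17a6 (-0.16, 0.73), all widely used ganglion cell markers, did not pass. Of 17 ganglion cell transcription factors 0 passed in either direction by limma, 7 had an unadjusted p under 0.05, 16 were below 0 in change and the median was -0.12. Pou4f2 (BRN3B) read 4.87, 4.55, 4.74, 4.61 and 4.79 uncrushed and 4.19, 4.33, 4.49, 4.34 and 4.38 crushed, groups without overlap that did not pass over all 17 arrays (log2 -0.37, SE 0.12, limma adjusted p = 0.25) and passed without Cre-negative uncrushed replicate 2 (adjusted p 0.035), an array that is in neither group but enters the shared estimate of spread.

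Outside the ganglion cell lists the falls were scattered, and whole retina does not show which cells they came from. Rasgrp2, an activator of Rap GTPases, fell by 0.45 on the log2 scale (SE 0.07, limma adjusted p = 0.0023). Fabp5, a fatty acid carrier (-0.41, 0.017), and Idi1, an enzyme of the cholesterol pathway (-0.31, 0.014), kept their calls without any 1 array and lost them without crushed replicate 5 and uncrushed replicate 4 together (adjusted p 0.051 and 0.084). Glul, the glutamine synthetase of Müller glia, went from 5.30, 5.75, 5.74, 5.75 and 5.57 to 5.30, 5.18, 5.04, 5.38 and 4.73. Uncrushed replicate 1 lay within the crushed range, and the change of -0.50 (SE 0.11, limma adjusted p = 0.047) lost its call in 13 of 17 fits without 1 array (highest adjusted p 0.13). Clu, the chaperone clusterin, rose by 0.44 (limma adjusted p = 0.049) and lost its call in 13 fits too (0.12). These were the only Müller glia markers of 19 to pass, and the median was 0.02. The mitotic gene Spc25 (-0.39, 0.045) and the transferrin receptor Tfrc (-0.36, 0.045) lost their calls in 13 fits each (highest adjusted p 0.11 and 0.14), and 2 other Tfrc probes gave 0.07 and -0.31. Of 22 cholesterol synthesis genes Idi1 was the 1 that fell, 11 had an unadjusted p under 0.05, 18 were below 0 and the median was -0.13.

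Markers of the other retinal neurons did not pass in limma. For rods 0 of 16 were called (median -0.07, 1 with an unadjusted p under 0.05), for cones 0 of 11 (-0.01, 3), for bipolar cells 0 of 15 (-0.02, 0), for amacrine cells 0 of 13 (-0.03, 1) and for horizontal cells 0 of 6 (-0.02, 1). Vascular markers gave 0 of 12 (median 0.05, 1 with an unadjusted p under 0.05). Of 24 proliferation genes 0 rose and 1 fell, Spc25 (median 0.00). Heat shock genes (0 of 14, median 0.06) and NRF2 targets (0 of 12, median 0.02) did not pass, with 1 and 4 at an unadjusted p under 0.05. With 0.776% of all genes called, a count of 0 or 1 in lists of this size says nothing particular about them. Of 30 extracellular matrix and protease genes 3 rose, from 1 to 4 without any 1 array, and among these the metalloprotease Adamts1 (0.70, 0.0063) kept its call without any 1 array.

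The response was then set against that of Cre-negative retinas, in which 343 genes rose (1.36%) and 207 fell (0.824%). Of the 195 genes called in Cre-positive retinas 99 were also called there, all 99 in the same direction, which is 50.8% of the Cre-positive and 18% of the Cre-negative calls. The remaining 96 did not pass in Cre-negative retinas, and for 0 of these did the difference between genotypes pass. The direct test of the difference called 105 genes (0.418%), 34 with a higher (0.135%) and 71 with a lower change (0.283%) in Cre-positive retinas, and at an unadjusted p under 0.05 there were 2115 (8.42%). All 105 were called in Cre-negative retinas and 10 of them also in Cre-positive ones, each with the smaller change where Cre was present. Those 10 were Ecel1, Sox11, Atf3, Hrk, Colec10, Amz1, Scn4b, Fkbp1b, Tppp3 and Rbpms2. Colec10 was not well above background on any uncrushed array, so no size is given for it, and its Cre-positive call (limma adjusted p = 0.038) was lost in 12 of 17 fits without 1 array (highest adjusted p 0.12). With the left-out array placed in the Cre-negative uncrushed group 0 differences passed, and with it in the Cre-negative crushed group 121 did. That array read 4.36 for Ecel1, 1.81 for Sox11 and 0.81 for Atf3, nearer to the crushed than to the uncrushed Cre-negative arrays.

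**Figure D4:**
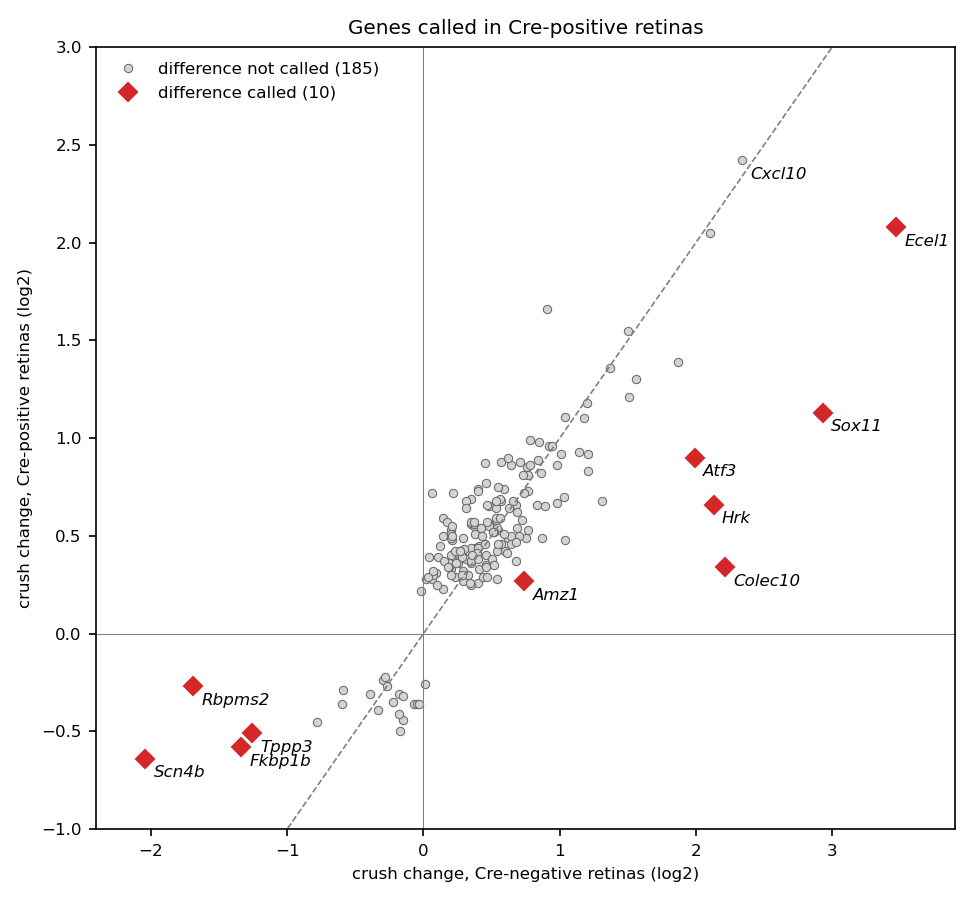
Crush change in Cre-positive retinas (vertical axis) against that in Cre-negative retinas (horizontal axis), both log2, for the 195 genes called in Cre-positive retinas, with the 10 whose difference between genotypes passed as labelled diamonds and the line of equal change dashed. All 10 lie nearer to 0 on the vertical than on the horizontal axis, while Cxcl10, at 2.42 and 2.34, lies near the line. The genes were chosen by their Cre-positive call, and Colec10 was not well above background on uncrushed arrays.

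Ecel1, Sox11, Atf3 and Hrk, all induced in injured neurons, had the larger rise in Cre-negative retinas. The differences called here and in the next paragraph were also called without any 1 array. With the scanner's processed signals 3 of them did not pass, those of Ecel1 (-0.69, adjusted p 0.79), Hrk (-0.67, 0.84) and Pou4f2 (0.30, 0.97), and Pou4f2 also not with a normexp offset of 16 (1.33, 0.092). Ecel1 changed by 2.08 in Cre-positive and 3.47 in Cre-negative retinas, a difference of -1.39 (SE 0.21, limma adjusted p = 0.0021). For Sox11 the changes were 1.13 and 2.93 (difference -1.80, SE 0.15, limma adjusted p = 2.8e-06), for Atf3 0.90 and 1.99 (-1.09, SE 0.14, limma adjusted p = 0.00033) and for Hrk 0.66 and 2.13 (-1.47, SE 0.18, limma adjusted p = 0.00023). Of the falls, Scn4b changed by -0.64 and -2.04 (difference 1.39, SE 0.13, limma adjusted p = 9.6e-06), Rbpms2 by -0.27 and -1.69 (1.42, SE 0.08, limma adjusted p = 3.5e-08), Fkbp1b by -0.58 and -1.34 (0.75, SE 0.09, limma adjusted p = 0.00014) and Tppp3 by -0.51 and -1.26 (0.75, SE 0.11, limma adjusted p = 0.0013).

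Other genes had a called difference with no call in Cre-positive retinas. Sprr1a changed by 0.18 and 2.38 (difference -2.20, SE 0.26, limma adjusted p = 0.00014), Chac1 by 0.50 and 2.51 (-2.02, SE 0.18, limma adjusted p = 4.7e-06) and Tnfrsf12a, the TWEAK receptor, by 0.35 and 1.71 (-1.37, SE 0.16, limma adjusted p = 0.00019). Isl2 changed by -0.25 and -1.69 (1.44, SE 0.11, limma adjusted p = 6.5e-07) and Pou4f2 by -0.37 and -1.77 (1.40, SE 0.19, limma adjusted p = 0.00068). Stbd1, a glycogen-binding protein, changed by -0.16 and 1.04 (-1.20, SE 0.07, limma adjusted p = 3.5e-08). By list, the counts stand beside 0.283% of all genes called lower and 0.135% called higher. The integrated stress response held 10 of 30 genes with a called lower change. Ganglion cell structural genes held 7 of 23 and ganglion cell transcription factors 5 of 17 with a called higher one. Axon injury genes held 6 of 24 lower and 1 higher. These lists were chosen with earlier results of these data known, so the shares of all genes are no independent yardstick.

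The immune and glial lists were looked at in the same way. The difference passed for 0 of 17 complement, 0 of 17 microglial, 0 of 17 antigen presentation, 0 of 28 interferon-induced, 0 of 18 gp130 and 0 of 14 acute-phase genes by limma, and for 1 of 21 reactive glia genes. With 0.418% of all genes called, a count of 0 or 1 in lists of this size says nothing particular about them. Cxcl10 differed by 0.08 (SE 0.45), Edn2 by -0.48 (SE 0.25, adjusted p = 0.64), Osmr by -0.39 (SE 0.15, 0.50) and Stat3 by -0.31 (SE 0.20, 0.72). C1qb changed by 0.57 and 0.17, a difference of 0.40 (SE 0.12, 0.28), and Csf1r by 0.69 and 0.35, a difference of 0.33 (SE 0.17, 0.62). Gfap changed by 0.81 and 0.77, C4b by 1.36 and 1.37, Aif1 by 0.89 and 0.84, and Gal by 0.82 and 0.86. The C1qb difference passed without crushed replicate 1 (adjusted p 0.0054), and a missed threshold does not show equal responses.

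**Figure D5:**
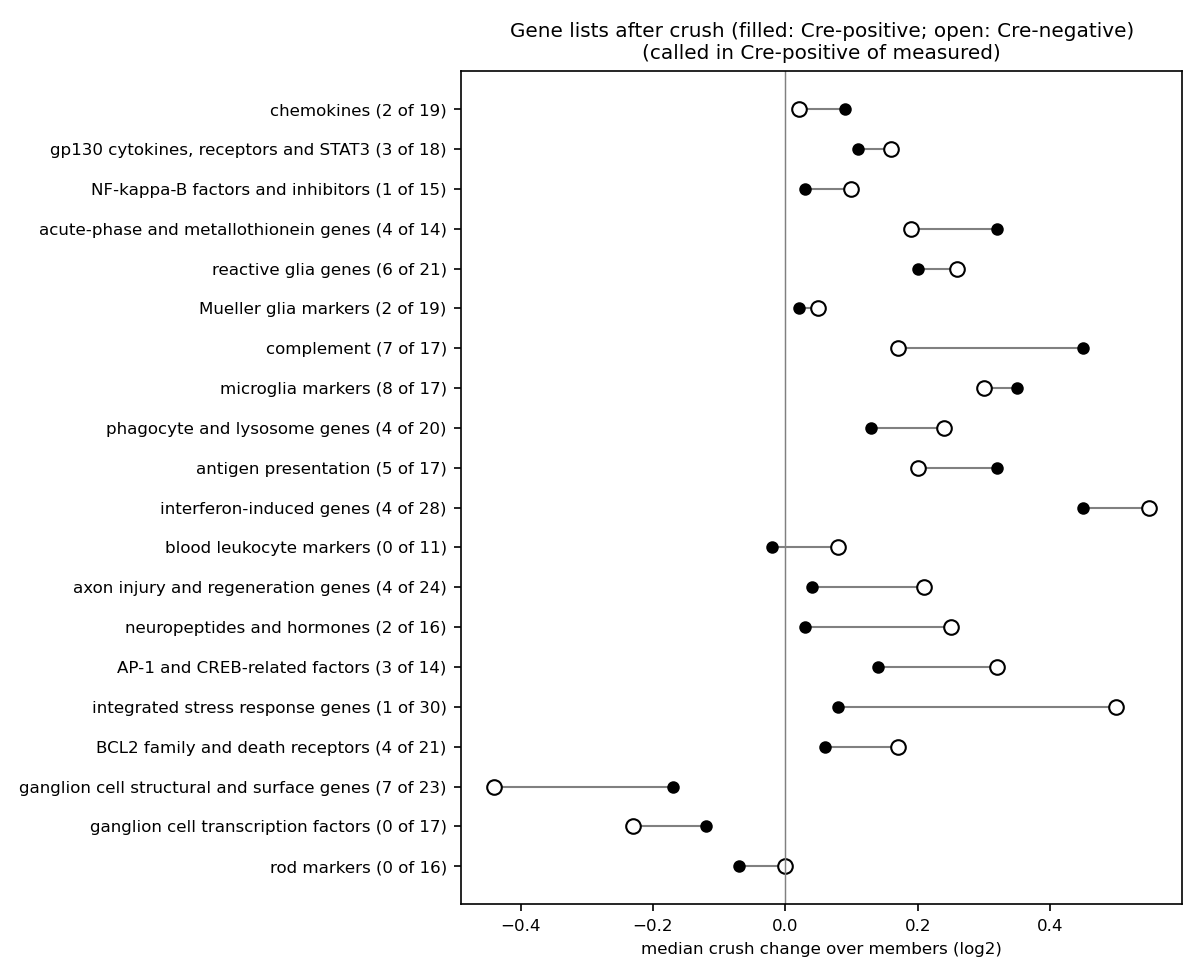
Median crush change (horizontal axis, log2) over the measured members of 20 gene lists in Cre-positive (filled) and Cre-negative (open) retinas, with the number of members called in either direction in Cre-positive retinas and the number measured beside each name. The integrated stress response median is 0.08 and 0.50, that of ganglion cell structural genes -0.17 and -0.44, and that of complement 0.45 and 0.17.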

How the data were processed

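Agilent scanner files of 18 retinas were used, with spot intensity values deposited by the authors from Feature Extraction 10.7.3.1, per the file headers. The authors' deposited value table holds log2 ratios of Cy5 over Cy3, and it served as an alternative; the scanner files' own log10 ratios, made by the authors' scanner software per the file headers, were used only as a check. Spot median intensity was corrected with normexp (offset 50) and normalized by loess within arrays in limma 3.58.1 (R 4.3.3). Probes well above background in Cy5 on at least 3 arrays were kept, and the brightest probe stood for a gene, giving 25131 genes, 16793 with a symbol. Means of 4 groups over 17 arrays were fitted with 13 residual degrees of freedom, and p-values were adjusted by Benjamini-Hochberg over all genes. Replicate numbers follow sample order. A list describes counts and medians only. With 0.776% of all genes called in the Cre-positive comparison, 0 or 1 calls in a list say nothing particular about it. The text names the 20 largest rises, 12 largest falls, 12 largest differences each way, up to 5 members per list and a set of marker genes, as far as each is described. The members and lists were chosen with earlier results of these data known. On simulated data the fit recovered 86.2%, 98.3% and 100% of genes changed by 0.5, 1 and 2 (log2) in the Cre-positive comparison, with 10 false calls among 25131 genes. The simulated noise was normal, independent between arrays and equal in spread on all arrays of a gene, and the change was the same on every crushed array. The data had arrays that stood apart, such as crushed replicate 5, so these shares do not measure recovery or false calls in the data. Alternatives covered background, scaling, filter, probe choice, slide, array weights, the left-out array and each array in turn. Precision is limited by the number of arrays. A few genes are not reported here.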

Additional observations from a re-analysis of the deposited data

Results flagged for a closer look

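Among 204 groups of 5 Cre-positive arrays tested for a lone extreme array, 17 had one, where independent tests would give about 1 in 20 (10.2). Of these 10 were on crushed replicate 5, which was the highest crushed array for C1qa (2.43), Cd44 (-0.71), Cebpd (1.51), Cryaa (3.18), Edn2 (4.58), Irf1 (-1.23), Irf8 (-0.23), Nupr1 (-0.99), Osmr (-1.71) and Tnfrsf1a (-1.82). The other 7 were on several arrays. Krt12 stood out on crushed replicate 4 (2.09), Nfkb2 on crushed replicate 2 (-2.56), and Bst2 and P2ry12 on uncrushed replicate 3 (-2.96 and 0.89). Chac1, Sprr1a and Stmn4 did so on uncrushed replicate 4 (-2.87, -2.02 and 4.95). The tests cover genes chosen for the text and read on the same arrays, so they are not independent. Thus 10.2 is no measure of chance here.

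The crush response differed between genotypes by the interaction term in limma for 14 of the genes named. The difference, Cre-positive minus Cre-negative, was -1.39 for Ecel1, -1.80 for Sox11, -1.09 for Atf3, -1.47 for Hrk, -2.20 for Sprr1a, -2.02 for Chac1, -1.37 for Tnfrsf12a and -1.20 for Stbd1. It was 1.39 for Scn4b, 1.42 for Rbpms2, 0.75 for Fkbp1b, 0.75 for Tppp3, 1.44 for Isl2 and 1.40 for Pou4f2.

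The left-out Cre-negative array, whose labels disagree on crush, read 4.36 for Ecel1, where the 4 uncrushed Cre-negative arrays read 0.93 to 1.15 and the 3 crushed ones 4.49 to 4.55. It read 1.81 for Sox11 against -1.04 to -0.99 uncrushed and 1.85 to 1.97 crushed. It read 0.81 for Atf3 against -1.28 to -1.17 uncrushed and 0.71 to 0.85 crushed.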

How the results depend on the processing

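The Cre-positive count was recomputed under 34 alternatives and the Cre-negative and difference counts under 32, since the fits of the Cre-positive arrays alone do not give these, and 17 in each case left out 1 array. The 195 Cre-positive calls became 52 with the 10 Cre-positive arrays alone (44 higher, 8 lower), 77 with slide as a block on those arrays (71 and 6), 119 without the arrays highest in Krt12 and Cryaa (109 and 10) and 10 with the left-out array as Cre-negative uncrushed (10 and 0). The Cy5 channel alone gave 199 calls with 44 lower, so that 77.9% of calls were higher in place of 88.7%. Leaving out 1 array gave 112 to 243 calls, 99 to 225 higher and 10 to 24 lower, with 112 without uncrushed replicate 2, 123 without uncrushed replicate 5 and 129 without crushed replicate 5. In Cre-negative retinas the 550 calls became 1722 with array weights (1036 and 686) and 72 with the left-out array as uncrushed (52 and 20), lower calls were 113 with the scanner's processed signals, and leaving out 1 array gave 330 to 679 calls, 198 to 466 higher and 114 to 233 lower. The 105 differences became 68 with processed signals (14 higher), 182 with array weights (70 and 112) and 0 with the left-out array as uncrushed (0 and 0), and 79 to 120 without 1 array, 25 to 37 higher and 54 to 83 lower. In every alternative all 195 genes kept their direction where measured, except 1 gene with processed signals. Other values of these counts stayed within 1.5 times. List counts moved more, from 5 to as few as 0 for antigen presentation, 3 to 0 for extracellular matrix and 1 to 0 for the integrated stress response with the 10 Cre-positive arrays alone. With the left-out array as uncrushed, counts fell to 0 from 8 for microglial, 7 for ganglion cell structural and 6 for reactive glia genes. In that setting they also fell to 0 from 4 each for interferon-induced, acute-phase, phagocyte and BCL2 family genes, and from 3 each for gp130 and AP-1 genes. For these changes the cause was not tested, apart from fewer arrays where arrays were left out. No paired analysis was possible because the labels give no replicate numbers and do not say which eyes share an animal.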
